A study of Homo sapiens with 15 samples.

Results

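The activator protein 1 (AP-1) transcription factors were described over 15 established non-small-cell lung cancer (NSCLC) lines. The family was taken as 9 genes of the 18132 measured: JUN, JUNB and JUND, FOS, FOSB, FOSL1 and FOSL2, and the related ATF3 and BATF3. All 9 were represented on the array, by 31 of the 44988 probe sets annotated to a single gene, and each gene was read on its brightest probe set, that with the highest mean, with its other probe sets as a check. The study hybridized RNA of each line, grown without irradiation, to 1 Affymetrix PrimeView array, and compared lines by SF2, the fraction of cells that form colonies after 2 Gy.

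By the study's SF2 values, with their mean as the limit, 8 lines were radioresistant (from the highest SF2 down, H1975, A549, HC827, H358, H2228, H3122, H460 and H1650) and 7 radiosensitive (H520, Calu1, H1437, H226, Calu3, H2009 and H1781). By histology, Calu1, H226 and H520 were squamous, H1437 and H358 bronchioloalveolar, H460 large cell and the other 9 adenocarcinoma. All 3 squamous lines were radiosensitive, so in these 3 lines squamous histology and low SF2 cannot be told apart. The other 4 radiosensitive lines were not squamous. Each line was hybridized once, so the lines stand as the replicates of a class and p-values reflect how much lines differ among themselves. The SF2 of H520 was taken by the study from the literature.

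AP-1 is a dimer of basic leucine zipper proteins. JUN proteins pair with each other or with FOS proteins, FOS proteins need a JUN partner, and ATF3 and BATF3 join the network through their own zippers; the dimers bind the TPA response element or the cyclic AMP response element (CRE). FOS, FOSB, JUN, JUNB and ATF3 are immediate early genes, switched on within minutes by growth factors, serum or stress through the ERK, JNK and p38 kinases, whereas FOSL1 is a later gene that stays high where ERK signalling is sustained, as in many epithelial tumours. RNA levels do not report the phosphorylation that sets the activity of JUN and FOS proteins.

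The promoters of 5 members are shown first: JUN and ATF3, and FOS and FOSB, because the 2 genes of each pair held the same motif, and JUNB because its level followed that of FOS. RefSeq (GRCh38.p14) gave a start for 7 of the 9 genes, and the 250 bases before it were searched on both strands for TGANTCA (the TPA response element), TGACATCA (the variant known from the JUN promoter), TGACGTCA (the full CRE) and TGACGT (a part of the CRE that also lies inside TGACGTCA). JUN (chr1:58784048-58784297, minus strand) and ATF3 (chr1:212565157-212565406, plus strand, the first of 2 starts) both held TGACATCA, at 67 to 60 and at 123 to 116 bases before the start. The window of the other ATF3 start held none of the 4 motifs. FOS (chr14:75278578-75278827, plus strand) and FOSB (chr19:45467746-45467995, plus strand) both held TGACGT, at 64 to 59 and 60 to 55 bases, and JUNB (chr19:12791236-12791485, plus strand) held none of the 4. Each sequence runs 5′ to 3′ and ends at the base before the start, with a matched motif in capitals.
JUN: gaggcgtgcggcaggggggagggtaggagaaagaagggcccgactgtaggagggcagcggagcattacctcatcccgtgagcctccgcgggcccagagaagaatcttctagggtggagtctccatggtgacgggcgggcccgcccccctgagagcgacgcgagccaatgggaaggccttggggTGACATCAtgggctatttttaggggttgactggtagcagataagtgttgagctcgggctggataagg
ATF3: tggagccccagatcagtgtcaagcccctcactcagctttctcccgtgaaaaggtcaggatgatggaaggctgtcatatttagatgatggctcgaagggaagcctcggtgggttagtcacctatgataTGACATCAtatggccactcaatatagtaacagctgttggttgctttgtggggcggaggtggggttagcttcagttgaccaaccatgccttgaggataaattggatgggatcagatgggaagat
FOS: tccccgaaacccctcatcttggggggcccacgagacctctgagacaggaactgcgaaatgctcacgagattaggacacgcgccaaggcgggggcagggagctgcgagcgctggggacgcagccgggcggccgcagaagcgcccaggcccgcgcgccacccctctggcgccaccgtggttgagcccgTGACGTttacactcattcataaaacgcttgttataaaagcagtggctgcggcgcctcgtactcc
FOSB: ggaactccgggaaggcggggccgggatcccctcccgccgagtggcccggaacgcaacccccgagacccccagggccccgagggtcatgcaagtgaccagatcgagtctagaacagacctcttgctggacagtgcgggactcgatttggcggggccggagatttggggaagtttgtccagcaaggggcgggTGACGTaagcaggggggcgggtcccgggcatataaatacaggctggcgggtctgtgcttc
JUNB: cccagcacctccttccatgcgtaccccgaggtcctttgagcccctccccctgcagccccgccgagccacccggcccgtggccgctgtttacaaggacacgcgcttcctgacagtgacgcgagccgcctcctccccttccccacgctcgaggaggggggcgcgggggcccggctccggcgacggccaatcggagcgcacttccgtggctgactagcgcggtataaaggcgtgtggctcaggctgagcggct

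Of the members not shown, FOSL2 held TGACGT at 66 to 61 bases before its start, and JUND held the full CRE at 200 to 193 bases and TGACGT on the other strand at 87 to 82 bases. TGANTCA was found in none of the members' windows. Among 35116 promoters of the same length, 6.57% held TGANTCA, 2.37% TGACATCA, 1.65% TGACGTCA and 7.1% TGACGT. A match of letters is a description and shows no binding.

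The values are RMA log2 expression values, so a difference of 1 is a doubling of signal, and a level is compared only with the same gene in other lines. The spread over the lines differed between the members. JUN had the widest spread (SD 1.65, n = 15 lines), above that of 95.4% of all genes, followed by ATF3 (SD 1.26), FOSL1 (SD 1.22), FOSL2 (SD 0.93), FOS (SD 0.82) and BATF3 (SD 0.78). JUNB (SD 0.42), JUND (SD 0.23) and FOSB (SD 0.14) varied little, and only 9.03% of all genes had a smaller SD than FOSB.

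**Figure D1:**
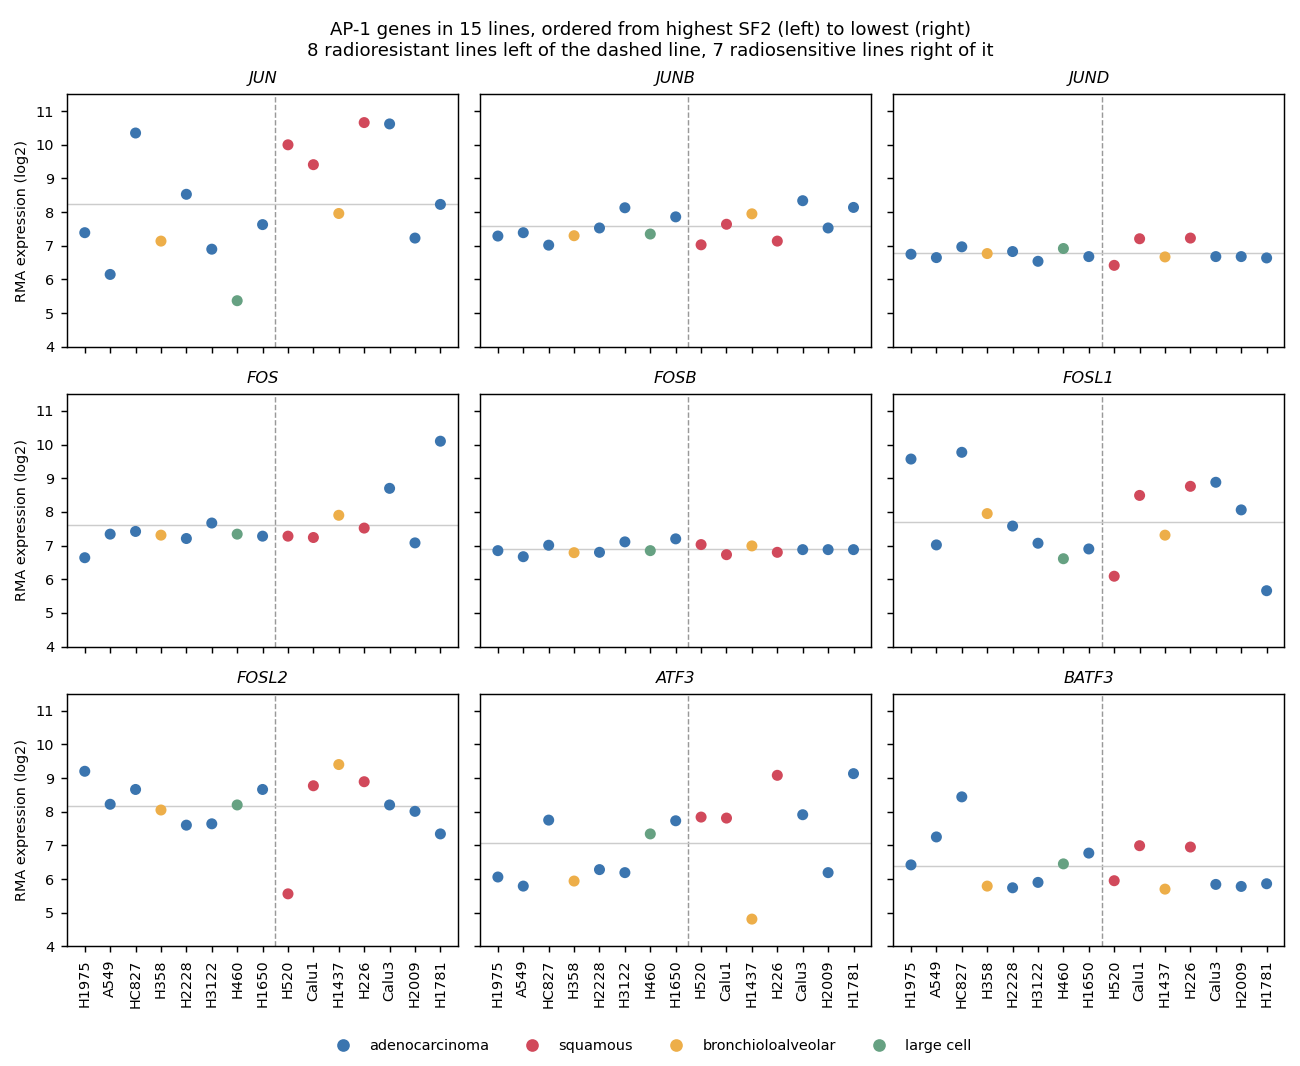
Expression of the 9 AP-1 genes (y axis, RMA log2 value) in each of the 15 lines (x axis, from highest SF2 at left to lowest at right; dashed line between 8 radioresistant and 7 radiosensitive lines; grey line, mean; colours, histology). JUN ran from 5.37 in H460 to 10.66 in H226, FOS stood at 10.10 in H1781, and FOSB stayed between 6.67 and 7.20.

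Among the JUN proteins, JUN, the strongest activator among them, was at 10.66 in H226, 10.62 in Calu3, 10.35 in HC827, 10.00 in H520 and 9.41 in Calu1. It was at 8.53 in H2228, 8.23 in H1781, 7.96 in H1437, 7.63 in H1650, 7.39 in H1975, 7.23 in H2009, 7.14 in H358, 6.90 in H3122, 6.15 in A549 and 5.37 in H460. The 5 highest lines, which included the 3 squamous lines, were separated from the rest by 0.88, the widest step in the order, and the 4 JUN probe sets gave nearly the same order (r of at least 0.98 with the brightest, n = 15).

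JUNB, which counters JUN at some promoters and replaces it at others, was read on 1 probe set, from 7.02 in HC827 through a median of 7.53 to 8.34 in Calu3. Calu3, H1781 (8.14) and H3122 (8.13) were highest, and the squamous H520 (7.03) and H226 (7.14) were near the bottom although both were high in JUN. JUND, the JUN protein made steadily in most resting cells, was also read on 1 probe set and lay between 6.42 in H520 and 7.23 in H226, with Calu1 at 7.21 and HC827 at 6.97. H226, Calu1 and HC827 were thus high in JUN and JUND, whereas H520 was high in JUN and lowest in JUND.

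Among the FOS proteins, FOS was at 10.10 in H1781, 8.70 in Calu3, 7.90 in H1437 and 7.67 in H3122, and the other 11 lines lay between 6.64 (H1975) and 7.52 (H226). H1781 stood 1.40 above Calu3, and these 2 lines, both known for an altered ERBB2 gene, were alone above 8. The other 3 probe sets followed the brightest (r = 0.92, 0.87 and 0.97, n = 15) over a wider range: the third brightest ran from 3.97 in H520 and 4.25 in H2009 to 8.95 in Calu3 and 10.57 in H1781. On that probe set H3122 was at 7.89, H1437 at 7.74, H226 at 7.16 and HC827 at 7.15, so that lines close together on the brightest probe set were apart on it.

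FOSB, a close relative of FOS, gave no usable order. Its brightest probe set lay between 6.67 in A549 and 7.20 in H1650, and its other probe set, from 5.24 in H358 to 6.27 in H1781 with Calu3 at 6.25, did not follow it (r = 0.07, n = 15). The other FOSB probe set did follow FOS (r = 0.85, and 0.81 without H1781), while the brightest did not (r = 0.05). The 2 probe sets disagreed, and the FOSB comparisons below hold for the brightest unless the other is named.

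**Figure D2:**
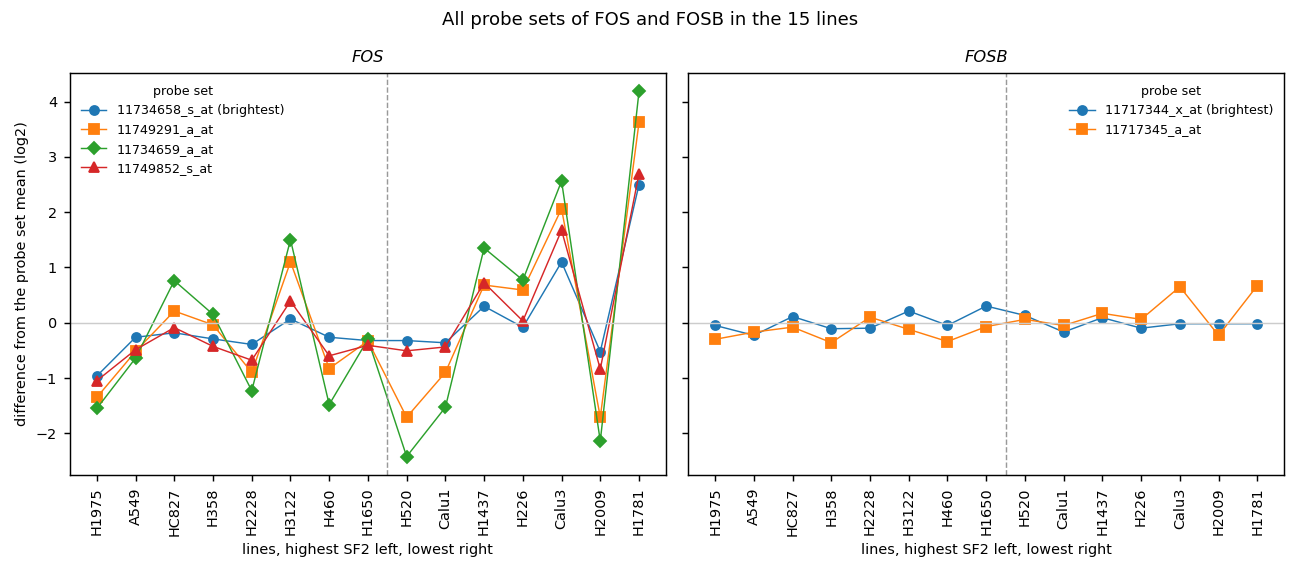
Each probe set of FOS (left) and FOSB (right) in the 15 lines (x axis, from highest SF2 to lowest), as the difference from its own mean over the lines (y axis, log2). The 4 FOS probe sets followed one another, with H1781 highest on each, whereas the 2 FOSB probe sets separated in Calu3 and H1781.

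FOSL1 (FRA-1), a FOS protein without a transactivation domain that accumulates under sustained ERK signalling, was at 9.77 in HC827, 9.57 in H1975, 8.88 in Calu3, 8.76 in H226, 8.49 in Calu1 and 8.06 in H2009. It was at 6.61 in H460, 6.09 in H520 and 5.66 in H1781, the line with the highest FOS, and between 6.90 and 7.95 in the other 6 lines. The 5 other FOSL1 probe sets followed the brightest (r from 0.82 to 0.99), and on 1 of them the range was from 3.78 in H520 to 10.06 in HC827.

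FOSL2 (FRA-2), its closest relative, was at 5.56 in H520, 1.78 below the next line, H1781 (7.34). The other 13 lines lay between 7.60 (H2228) and 9.40 (H1437), with H1975 at 9.20 and H226 at 8.89. H520 and H1781 were the 2 lowest lines for both FOSL1 and FOSL2.

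ATF3, a stress-induced factor that represses or activates depending on its partner, was at 9.13 in H1781, 9.08 in H226, 7.91 in Calu3, 7.84 in H520, 7.81 in Calu1, 7.75 in HC827, 7.73 in H1650 and 7.34 in H460. The other 7 lines lay between 4.81 (H1437) and 6.28 (H2228). H226, second to H1781, stood 1.17 above Calu3, the widest step in the order on the brightest probe set. The next 3 ATF3 probe sets followed the brightest (r = 0.93, 0.98 and 0.96, n = 15). On each of these H226 was above H1781 (8.38 against 7.72, 7.98 against 7.41 and 5.58 against 5.48). The 3 dimmest ATF3 probe sets followed the brightest less (r = 0.45, 0.60 and 0.42). BATF3, known for its role in dendritic cells, was at 8.44 in HC827, 1.20 above A549 (7.25), and the 3 lowest lines, H1437, H2228 and H2009, were between 5.70 and 5.78. PTPRC, the common leukocyte antigen, was at most 3.45 in any line. Single blood cell genes were high in single lines, with CD14 at 9.64 in H1437, LYZ at 8.90 in Calu3, and CD68, a lysosomal protein of macrophages that other cells also make, at 9.53 in H1975 and 9.21 in HC827. CD68 had r = 0.64 with BATF3 over the 15 lines and was past the rule defined below along SF2 (slope 1.17 ± 0.50, limma p = 0.0342, adjusted p = 0.998, n = 15), and its part in the BATF3 levels was not tested. Of 10 haematopoietic markers 5 were below 6 in every line, as were 4 of 10 stromal markers, and the mean of a list in a line lay between 4.78 and 5.57 for the former and 4.56 and 5.64 for the latter.

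Counted by line, Calu3 was among the 3 highest lines for 5 of the 9 members (JUN, JUNB, FOS, FOSL1 and ATF3), H226 for 4 (JUN, JUND, FOSL2 and ATF3) and HC827 for 4 (JUN, JUND, FOSL1 and BATF3). H520 was among the 3 lowest lines for 4 members (JUNB, JUND, FOSL1 and FOSL2), and H1781 was among the 3 highest for 3 (JUNB, FOS and ATF3) and the 3 lowest for 3 (JUND, FOSL1 and FOSL2). H2009, H2228, H358 and H460 were among the highest for no member.

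Signs of RNA quality varied with some members. The 3′ minus 5′ difference of the actin control grows when RNA is degraded. It was 2.09 in H1781, on the brightest probe sets the line highest in FOS and ATF3 and lowest in FOSL1. The difference was 1.90 in H3122, against 0.63 to 1.30 in the other 13 lines. Over the 15 lines, which share 1 array each and 1 normalization, its correlation was -0.70 with FOSL1, -0.59 with JUND, -0.56 with BATF3, -0.51 with FOSL2, -0.33 with JUN, 0.58 with FOS, 0.46 with JUNB, 0.27 with FOSB and 0.04 with ATF3. Its part in the members' levels was not tested. The array medians lay between 5.87 and 5.93.

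Between the SF2 classes, JUN was lower in the radioresistant lines before, but not after, adjustment over all genes. JUN ran from 5.37 through a median of 7.26 to 10.35 in the 8 radioresistant lines and from 7.23 through 9.41 to 10.66 in the 7 radiosensitive lines. HC827, at the level of the highest radiosensitive lines, made the classes overlap, as did H2009 (7.23), near the radioresistant median. H1437 (7.96) and H1781 (8.23) lay between the radioresistant H1650 (7.63) and H2228 (8.53). The difference was -1.73 ± 0.71 (limma log2 fold change and SE; 7.43 ± 1.51 against 9.16 ± 1.36, mean and SD), with an exact two-sided permutation p = 0.0399 and a limma p = 0.0284 before and 0.998 after Benjamini-Hochberg adjustment over all genes. JUN was the only member that met the call rule used here, an unadjusted limma p under 0.05 and an absolute log2 fold change over 1, and 0.215% of all genes met it in that direction (0.331% in the other and 0.546% in either). After adjustment no gene had p under 0.05 by limma, of 577 below 0.05 unadjusted. No member separated the classes without overlap, beside 0.00552% of all genes in each direction.

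The JUN call was lost without the squamous lines and without any 1 of 5 lines. In the 12 other lines the difference was -1.08 ± 0.86 (exact p = 0.261), and among the adenocarcinoma lines alone, an alternative chosen after the data were seen, it was -0.87 (exact p = 0.464). It also left the rule, by limma's p, when A549 (-1.54), Calu3 (-1.48), H226 (-1.48), H460 (-1.43) or H520 (-1.59) was left out. The exact p was between 0.0719 and 0.0819 without each of these 5 and was also above 0.05 without Calu1 (exact p = 0.0609), H1650 (0.0536), H1975 (0.0565), H3122 (0.0653) or H358 (0.0612), thus without any 1 of 10 lines.

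FOS was outside the rule over all lines and past it without the squamous lines. It ran from 6.64 through 7.32 to 7.67 in the radioresistant lines and from 7.08 through 7.52 to 10.10 in the radiosensitive lines, and the classes overlapped apart from H1437, Calu3 and H1781 above and H1975 below. The difference was -0.70 ± 0.38 (exact p = 0.0822), outside the rule. Without the squamous lines, which lay between 7.24 and 7.52, it was -1.17 ± 0.43 (exact p = 0.0242), and among the adenocarcinoma lines -1.37 ± 0.56 (exact p = 0.0714), both past the rule by limma's unadjusted p. Of 18132 genes, 71 were higher and 96 lower by the rule without the squamous lines (lowest adjusted p = 0.999 by limma), and 80 and 144 among the adenocarcinoma lines (0.99). On the second and the third brightest probe sets the difference without the squamous lines was -1.49 (exact p = 0.105) and -1.84 (exact p = 0.113). With all lines but H1781 it was -0.34 (exact p = 0.196) on the brightest.

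**Figure D3:**
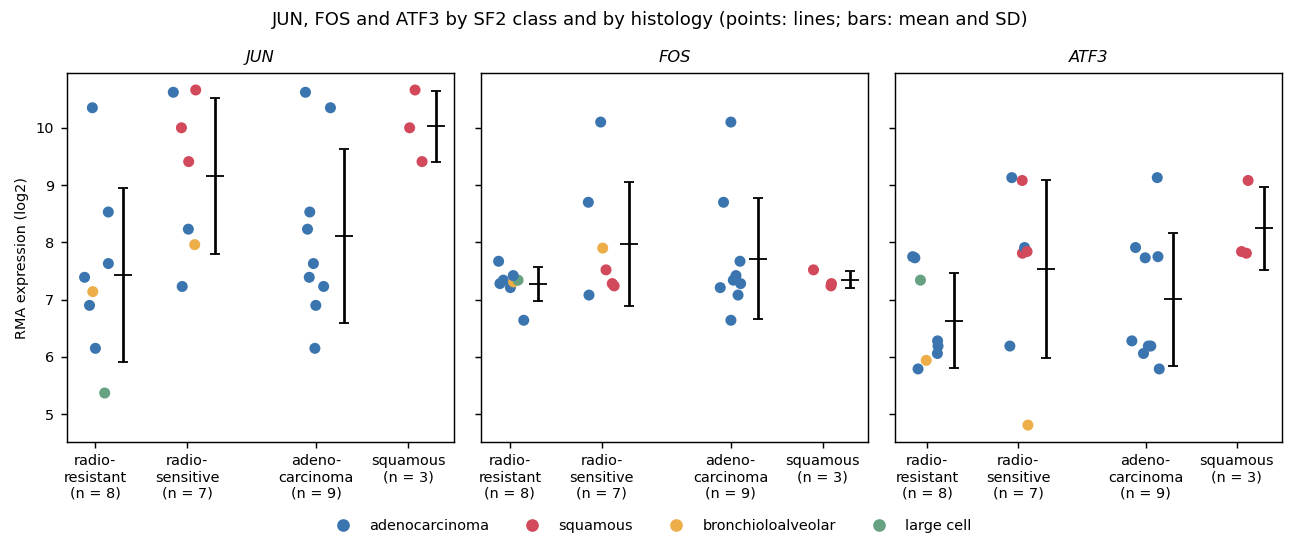
JUN, FOS and ATF3 (y axis, RMA log2 value) in the 8 radioresistant and 7 radiosensitive lines and in the 9 adenocarcinoma and 3 squamous lines. Points are lines coloured by histology and bars are mean and SD; the squamous lines were high in JUN (9.41 to 10.66) and near the middle in FOS (7.24 to 7.52).

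The other 7 members did not pass the rule between the classes. ATF3 was 6.63 ± 0.83 in the radioresistant and 7.54 ± 1.55 in the radiosensitive lines (-0.90 ± 0.60, exact p = 0.167), and it passed the rule only when H1437, its lowest line, was left out (-1.36, exact p = 0.0193). BATF3 was 6.60 ± 0.91 against 6.15 ± 0.56 (0.44 ± 0.38, exact p = 0.301). The differences of JUNB, JUND, FOSB, FOSL1 and FOSL2 were between -0.20 and 0.25, and exact p-values were between 0.372 and 0.834. The other FOSB probe set was -0.36 ± 0.14 (exact p = 0.0143, and between 0.00266 and 0.0326 with any 1 line left out), under the fold limit and of opposite sign to the brightest (0.02). It ran from 5.24 to 5.70 in the radioresistant and from 5.37 to 6.27 in the radiosensitive lines. The median of the 9 members was -0.02 beside -0.008 over all genes.

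With SF2 as a continuous predictor, FOS had the lowest p of the members, with a negative slope. The slope, given over the distance between the mean SF2 values of the classes, was -0.84 ± 0.28 on the log2 scale (limma p = 0.00823, adjusted p = 0.998, n = 15), smaller than the fold limit. Thus 0 of 9 members met the rule, beside 0.568% of all genes (0.237% with a positive and 0.331% with a negative slope). The correlation of FOS with SF2 was -0.63 (Spearman -0.39, n = 15 lines), -0.61 within each class and -0.69 in the 12 lines that were not squamous. H1781, highest in FOS and lowest in SF2, carried part of the slope, which was -0.39 (limma p = 0.0822, n = 14) without it and -1.15 (limma p = 0.000412), past the rule, without H2009, which was low in both. The other FOS probe sets gave slopes of -1.03 (limma p = 0.0839), -1.14 (limma p = 0.142) and -0.99 (limma p = 0.0125, n = 15 lines each).

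The slopes of the other members were -0.88 for JUN (limma p = 0.208), -0.91 for ATF3 (limma p = 0.08), -0.33 for JUNB (limma p = 0.058), 0.55 for BATF3 (limma p = 0.0877), 0.59 for FOSL1 and 0.34 for FOSL2 (n = 15). The correlation of JUN with SF2 was -0.33 over the 15 lines, 0.07 among the 8 radioresistant and 0.50, the opposite sign, among the 7 radiosensitive lines. JUND and FOSB were flat (0.02 and -0.02), and the other FOSB probe set had a slope of -0.32 ± 0.11 (limma p = 0.0109, adjusted p = 0.999, n = 15). ATF3 passed the rule without H1437 (-1.05), H2009 (-1.31) or HC827 (-1.07).

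Between the 3 squamous and 9 adenocarcinoma lines, JUN was higher in the squamous lines. It was at 9.41 in Calu1, 10.66 in H226 and 10.00 in H520, and it ran from 6.15 through 7.63 to 10.62 in the adenocarcinoma lines. Calu3 and HC827 were as high as the squamous lines, and the other 7 adenocarcinoma lines were below all of them. The difference was 1.91 ± 0.86 (exact p = 0.0682; limma p = 0.0471, adjusted p = 0.568), past the rule that 1.46% of all genes met in that direction (2.23% in the other and 3.68% in either). With 3 against 9 lines the exact p could not go below 0.00455. The call was kept only when Calu3 or HC827 was the line left out, and leaving out any other line ended it.

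ATF3 was at 7.81 in Calu1, 9.08 in H226 and 7.84 in H520, against 5.79 through 6.28 to 9.13 in the adenocarcinoma lines. H1781 and Calu3 were above 1 or more of the squamous lines and HC827 and H1650 just below them. The difference was 1.24 ± 0.67 (exact p = 0.105), and it was past the rule without H1781 (1.51, exact p = 0.0364). FOSL1 and FOSL2 were split within the squamous lines: Calu1 and H226 were at 8.49 and 8.76 for FOSL1 and 8.77 and 8.89 for FOSL2, and H520 was at 6.09 and 5.56. The FOSL2 difference was -0.43 ± 0.62 with H520 and 0.66 without it, and that of FOSL1 -0.05 ± 0.86 and 0.79. The other members differed by between -0.42 (JUNB) and 0.24 (JUND), with exact p-values of at least 0.164. No member separated the histologies without overlap, beside 0.767% of all genes higher and 0.822% lower in every squamous line.

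The squamous label and the markers did not fully match. KRT5, a basal keratin, was at 8.66 in H226, 6.12 in H520 and 5.63 in Calu1, the last at the level of the adenocarcinoma lines (5.37 to 5.76). It was the 1 of 10 squamous markers measured that was past the rule, beside 1.46% of all genes higher by it. SOX2 and DSC3 were named after their values were seen. SOX2 was highest in H520 (13.07) but at 4.35 in H226 and 4.47 in Calu1. DSC3 was highest in H226 (8.87) but at 3.50 in H520 and 3.09 in Calu1. By their mean, the squamous lines were instead low in 7 of 14 epithelial genes, beside 2.23% of all genes lower by the rule. Among these were CDH1 (-6.39 ± 1.04, exact p = 0.00455), RAB25 (-4.82 ± 1.24), ELF3 (-3.78 ± 0.82) and GRHL2 (-2.23 ± 0.69). The squamous mean was high in 4 of 9 mesenchymal genes, CDH2 (4.86 ± 0.62, exact p = 0.00455), ZEB1 (3.18 ± 0.98), SPARC (2.91 ± 0.97) and TWIST2 (2.39 ± 0.70). None of these genes passed after adjustment (lowest adjusted p = 0.0849, CDH2, by limma). H520 did not share all of this. It was at 13.05 for EPCAM, 1 of the 7 and named after its values were seen, level with the highest line, H2009. For SPARC (6.22) and TWIST2 (5.77) H520 lay within the range of the adenocarcinoma lines. Over the 15 lines JUN itself had an r between -0.05 and 0.02 with CDH1, RAB25, ELF3 and GRHL2, and 0.11 with EPCAM. Its r was 0.17 with TWIST2, 0.20 with ZEB1, 0.32 with SPARC and 0.53 with CDH2.

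Over the 15 lines the 36 pairs of members had correlations from -0.48 to 0.64 with a median of 0.07, given as descriptions over lines that share 1 normalization. JUNB and FOS had the highest (r = 0.64, Spearman 0.44; from 0.56 without Calu3 to 0.67 without H3122). FOSL1 and FOSL2 followed (r = 0.60; at least 0.53 without any 1 line) and then JUN and ATF3 (r = 0.57, Spearman 0.70; at least 0.47). JUND ran with FOSL2 (0.56), FOSL1 (0.54) and BATF3 (0.52), although JUND spanned only 0.81. The lowest were JUNB with BATF3 (-0.48), JUND with FOSB (-0.46) and FOS with FOSL1 (-0.39), the last resting on H1781, since it was 0.00 without that line. JUN and FOS, the classical partners, had r = 0.20.

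**Figure D4:**
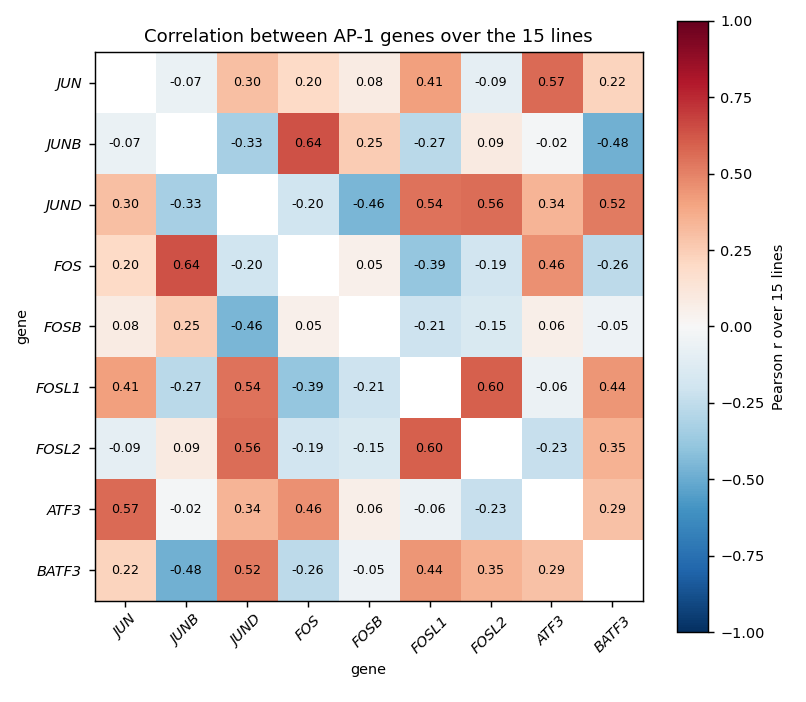
Pearson correlation between the AP-1 genes over the 15 lines (both axes, genes; colour and number, r). The highest values were 0.64 for JUNB with FOS, 0.60 for FOSL1 with FOSL2 and 0.57 for JUN with ATF3, and JUNB with BATF3 was lowest at -0.48.

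The genes most like each member were ranked by r over the 15 lines among 7432 genes with an SD of at least 0.5 and a highest value of at least 7. FOSL1 was followed by PHLDA2 (r = 0.89, Spearman 0.90), DRAP1 (0.87) and ELF4 (0.85), FOSL2 by PHLDB2 (0.90), PRKAG2 and CAPZA2 (0.88 each), and ATF3 by ZFAND3 (0.89), LMO4 (0.86) and WHR1 (0.83). JUN was followed by RUBCN and PDLIM4 (0.84 each) and HDAC9 (0.80), JUNB by C8orf82 (0.79), TEAD3 and RGL2 (0.78 each), and JUND by DNAJB4 and ADAMTS1 (0.91 each) and PDCD1LG2 (0.89). The likeness of FOS to LRRC31 (0.89), ATP13A4 (0.88) and EVPLL (0.87) rested on H1781, highest for each, since Spearman values were 0.48, 0.31 and 0.41. BATF3 with BCL2A1 (0.86), SOCS2 (0.85) and MMP24 (0.83) all peaked in HC827. FOSB, whose probe sets disagreed, was on the brightest nearest to ADGRL1 (0.77), BARX1 and HOXC10 (0.72 each), with Spearman values of 0.66, 0.38 and 0.69.

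Genes around AP-1 were read from lists. Of 25 known AP-1 targets measured, 22 correlated positively with FOSL1 (median r = 0.40, beside -0.103 over all genes) and 6 with FOS (median r = -0.18, beside -0.001), against 39.8% and 49.9% of all genes. With JUND 21 of the 25 were positive (median r = 0.39, against 38.7% of all genes), and with FOSL2 and BATF3 20 each (43.0% and 43.8%). For JUN the count was 16 (median r = 0.13, against 46.4%) and for ATF3 12 (-0.03, against 48.7%). For JUNB it was 8 (-0.07, against 50.7%) and for FOSB 5 (-0.26, against 57.8%). HMGA1, a chromatin protein, ran with FOSL1 at r = 0.81 (0.78 to 0.84 with any 1 line left out) and HBEGF, an EGF receptor ligand, at 0.75, both chosen after their values were seen. HMGA1 was at 11.79 in Calu1 and 8.51 in H520, and HBEGF at 10.19 in H226 and 5.17 in H3122. None of the 25 passed the rule between the classes or the histologies. VEGFA, which drives vessel growth, fell with SF2 (slope -1.01 ± 0.29, limma p = 0.00315, adjusted p = 0.998, n = 15), from 12.34 in H1781 to 9.08 in H1975, the highest and lowest lines for FOS.

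Among 23 immediate early genes none passed the rule in any comparison, and 4 of them had a difference above 0 between the classes (median -0.19, beside -0.008 over all genes). CCN2 and CCN1, matricellular proteins, varied most (SD 2.79 and 2.74, both highest in Calu3). EGR1, a zinc finger factor induced with FOS and named after its values were seen, was at 11.95 in Calu3, 11.46 in H1781 and 9.41 in H3122, and 4.89 in H460, with r = 0.74 to FOS (0.64 without H1781). Of 16 ERK feedback and output genes, none passed between the classes. SPRY4 (1.27 ± 0.56, exact p = 0.0591) and ETV5 (1.38 ± 0.58, exact p = 0.0455) were past the rule as higher in the squamous lines. DUSP6, an ERK phosphatase, fell with SF2 (slope -1.53 ± 0.66, limma p = 0.036, adjusted p = 0.998, n = 15) and had r = 0.52 to FOS.

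Of 13 genes of the ATF4 and unfolded protein response, which induces ATF3 under stress, 12 correlated positively with ATF3 (median r = 0.35) and 12 with FOS (median 0.40), whereas 1 did with FOSL1 (median -0.47). Of all genes, 48.7% were positive with ATF3 (median -0.01), 49.9% with FOS (-0.001) and 39.8% with FOSL1 (-0.103). SESN2 (r = 0.74), DDIT3 (0.68) and HERPUD1 (0.66) were nearest to ATF3, and ATF4 itself had r = 0.00, from -0.21 without H1781 to 0.43 without H226. DDIT3 was highest in H1781 (9.60), as were ATF4, TRIB3, CHAC1, ASNS, SESN2, HSPA5 and HERPUD1. Without H1781 the r of FOS fell from 0.45 to -0.05 with DDIT3 and from 0.45 to 0.26 with ATF4. That of ATF3 with DDIT3 fell from 0.68 to 0.57, and that of FOSL1 with DDIT3 went from -0.15 to 0.15. FOSL1 with ATF4 stayed at -0.59 or below without any 1 line. The list counts were not taken without H1781. SESN2 was past the rule as higher in the squamous lines (1.55 ± 0.61, exact p = 0.0545). The list's median difference was 0.45 between the histologies, beside 0.008 over all genes. Between the classes it was -0.35, beside -0.008 over all genes, with 1 of 13 above 0. The 18 other bZIP genes measured, of which NFE2L3 and CREM varied most (SD 1.88 and 1.41), and the 15 genes of the JNK and p38 pathway, led by MAP2K6 (SD 1.27) and DUSP10 (SD 1.16), held none past the rule in any comparison.

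**Figure D5:**
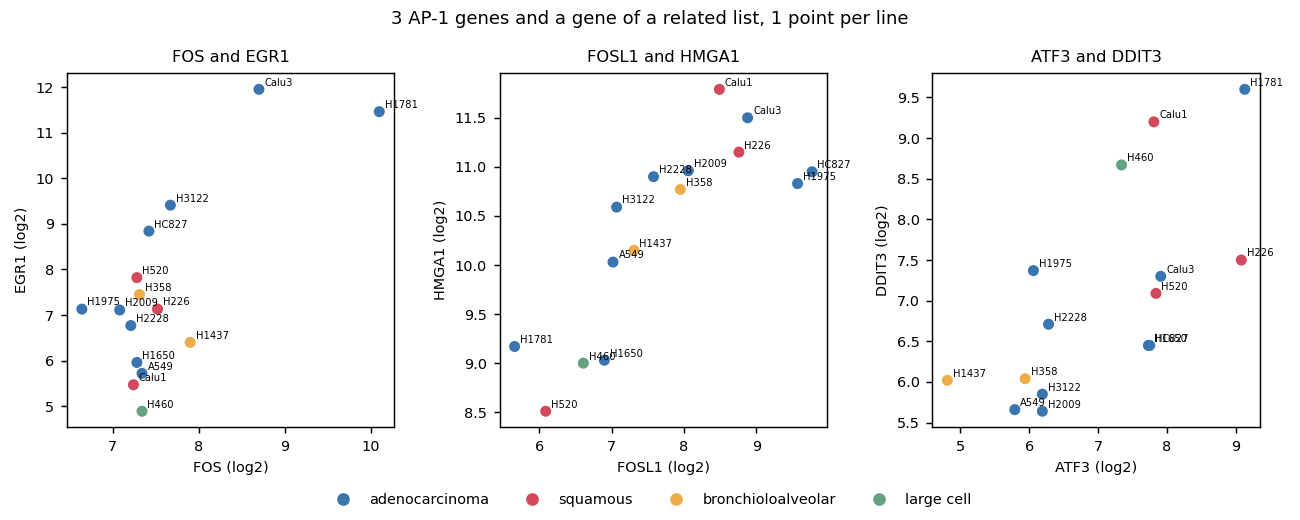
FOS with EGR1, FOSL1 with HMGA1 and ATF3 with DDIT3 (both axes, RMA log2 values), 1 point per line, coloured by histology. H1781 and Calu3 were highest in both FOS and EGR1, and H520 and H1781 were low in FOSL1 and HMGA1. H1781 was highest in DDIT3 and, on the brightest probe set, in ATF3.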

How the data were processed

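RNA of 15 untreated NSCLC lines was hybridized to Affymetrix PrimeView arrays, 1 per line. The deposited log2 values, 1 per probe set, were made by the authors with RMA (affy 1.64.0, from the submitters' processing notes). RMA makes array distributions equal and compresses low signals. The labels describe biotin-labelled RNA extracted with Trizol and 1 medium; the methods describe Cy3 or Cy5, a reference RNA, a miRNeasy kit and several media. No ratio was formed. Batches and dates are not given in the sources used here. The number of arrays limits the precision.

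Cell lines come from the labels, and SF2 class and histology from the study's methods. Of 49495 probe sets, 100 ERCC and 102 AFFX controls, 1832 with several genes and 2473 with none were left out, and the brightest single-gene probe set stood for each of 18132 genes. Gene IDs of 44961 of the 44988 probe sets were found in the GRCh38.p14 table. Limma 3.58.1 (R 4.3.3, lmFit and eBayes) with Benjamini-Hochberg adjustment over all genes tested 8 radioresistant against 7 radiosensitive lines, 3 squamous against 9 adenocarcinoma lines and the slope on SF2, scaled to the gap between class means. Exact two-sided permutation tests enumerated 6435 or 220 splits. With lines left out they had fewer splits, which scipy 1.17.1 enumerated. The call rule was an unadjusted p under 0.05 and an absolute log2 fold change over 1; the study states this fold limit with a p-value in one place and with an adjusted p-value in another, and counts by adjusted p are given too. The named genes were the 9 members, the 3 genes most like each, and from each list up to 4 past the rule or the 2 with the widest SD; exceptions are stated. The members and lists were chosen with earlier results of these data known. In data simulated over 18132 genes, a changed gene counted as found at an adjusted p under 0.05. For the class comparison 45.5% of 200 genes with a log2 change of 1 and 83.0% of 200 with a change of 2 were found. For the histology comparison the shares were 36.5% and 65.0%. The changed genes were drawn at random from all genes, with independent normal values. The shares therefore do not hold for members with a wide spread, such as JUN. Alternatives were array weights, a variance trend, array medians subtracted, dim genes left out, other probe sets, lines left out and the methods' t-test.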

Additional observations from a re-analysis of the deposited data

Results flagged for a closer look

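FOS in H1975 was 6.64, separated from the other 7 radioresistant lines (7.21 to 7.67) by more than the critical value of Dixon's test for 8 values. It was 1 of 27 checks of a member in a group of lines, and chance marks about 1 in 20. On the other FOS probe sets H1975 was at 5.22, 4.84 and 5.26. The next radioresistant line there was at 5.67 (H2228), 4.91 (H460) and 5.63 (H2228).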

How the results depend on the processing

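JUN, radioresistant minus radiosensitive, left the rule with SF2 as a continuous predictor (-0.88), with array weights (-1.51) and on 1 other probe set (-1.51); with single lines left out it ranged from -2.14 (without HC827) to -1.43 (without H460). JUN, squamous minus adenocarcinoma, left the rule with array weights (1.66), the mean of the probe sets (1.86), 2 other probe sets (1.84 and 1.91) and without H1781 and H3122 (1.75), and ranged from 1.59 to 2.22 with single lines left out. ATF3 was past the rule between the histologies without H1781 and H3122 (1.43) and ranged there from 0.83 to 1.51; between the classes it ranged from -1.36 to -0.64 and along SF2 from -1.31 to -0.60. The FOS slope ranged from -1.15 to -0.39.

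Members near 0 changed sign, and the causes were not tested. Between the classes, FOSB (main value 0.02) was -0.02 along SF2, -0.17 as the mean of the probe sets, -0.36 on the other probe set and -0.01 without H1781 and H3122; FOSL1 (0.20) was -0.02, -0.03, -0.03 and -0.08 on 4 other probe sets and -0.02 without H1781 and H3122. FOSL2 (0.25) was -0.05 and -0.01 on 2 other probe sets, and JUND (-0.02) was 0.02 along SF2, 0.07 within adenocarcinoma lines and 0.10 without the squamous lines. Between the histologies, FOSL1 (-0.05) was 0.08 against all 12 other lines, 0.37 with array weights, 0.10 as the mean and 0.25, 0.16, 0.28 and 0.28 on 4 other probe sets, FOSL2 (-0.43) was 0.22 with array weights and 0.25 on another probe set, and ATF3 was -0.01 on each of 2 dim probe sets. The JUND slope (0.02) was -0.01 without H1781 and H3122. With single lines left out, FOSB ranged from -0.02 to 0.06 between the classes and -0.04 to 0.02 along SF2, FOSL1 from -0.12 to 0.41 and between the histologies from -0.54 to 0.79, FOSL2 from -0.16 to 0.48 and from -1.0 to 0.66, and JUND from -0.09 to 0.05 and along SF2 from -0.02 to 0.05.

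Over all genes, the 99 past the rule between the classes became 167 without the squamous lines and 224 within adenocarcinoma lines, and 78 to 175 with single lines left out (175 without H1437, 159 without H2009). The 103 along SF2 became 173 without the squamous lines and 88 to 206 with single lines left out (206 without H2009). Between the histologies 0 genes had an adjusted p under 0.05, and 10 did against all 12 other lines, 20 with array weights, 1 without H1781 and H3122 and 0 to 30 with single lines left out (30 without H520). No paired analysis was possible because each line has 1 array.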
